A study of Mus musculus with 16 samples.

Results

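The comparison is between the total RNA of CSC-derived cardiomyocytes, named iCMs, and that of adult cardiomyocytes, named aCMs, both of C57BL/6J mice. It takes the 5 iCM and aCM libraries among the 8 total RNA libraries and 16 libraries of the series, with 3 of iCMs and 2 of aCMs. The other 3 total RNA libraries are of CSCs and served to estimate the spread between replicates. The iCMs came from 1 clone of adult cardiac stem cells, sorted as CD45-, CD31- and c-kit+, which was grown as cardiospheres, treated with BMP-4, Activin A, basic FGF, Wnt-11 and Wnt-5a and then with the Wnt inhibitor DKK-1, and collected once differentiation was complete. The aCMs were freed from adult hearts by collagenase perfusion and left to sediment, and were pooled from several hearts. Neither group carried a transgene or a knockout. By the study's description the iCM replicates share a clone. The methods split the libraries by their preparation without saying which were in each set, and p-values measure the spread between these libraries. The question put to the data was how far the transcripts of iCMs lie from those of the mature cell.

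As background, heart muscle cells switch after birth from fetal to adult isoforms of their contractile proteins, leave the cell cycle, and move from glucose and lactate to fatty acids as their main fuel. The sarcomere is built from thick filaments of myosin and thin filaments of actin, troponin and tropomyosin, which are anchored at the Z-disc and held by titin and the M-band. Contraction is set off by calcium entry through the L-type channel and calcium release from the sarcoplasmic reticulum, and it ends when the calcium pump returns calcium to the store.

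The iCM libraries held 31.2, 24.2 and 13.4 M counts and the aCM libraries 11.1 and 14.6 M. Levels are given as CPM, counts relative to library size after TMM scaling, which balances the libraries on the bulk of the genes. The 10 most abundant genes took between 4.69% and 6.88% of the counts in iCMs and at least 17.1% in aCMs. Libraries of a group correlated at 0.972 or more across genes (Spearman), against 0.814 to 0.839 between groups. Scaling by library totals alone raised the median log2 difference of all genes by 0.706. Before the results, 1 library has to be described against its group. Eif2s3y, a gene of the Y chromosome, was at 33.7, 29.6 and 30.4 CPM in iCMs and at 0.263 and 84.8 CPM in aCMs, and Ddx3y, also of the Y chromosome, at 21.8, 17.1 and 13.8 CPM in iCMs and 0.263 and 35.3 CPM in aCMs. Xist, the noncoding RNA of the inactive X chromosome, was at 197, 210.4 and 187 CPM in iCMs and 125 and 68.8 CPM in aCMs. Replicate 1 of aCMs thus lacked the Y-linked RNAs that replicate 2 held, and the part of this difference in the results below was not tested. All iCM libraries held both Y-linked RNAs and Xist. The study describes 1 clone for the iCMs, and whether these libraries hold cells of 1 clone alone was not tested.

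Of 39043 entries in the table, 20254 passed the filter on low counts and were tested. Calls required an adjusted p under 0.05 in the quasi-likelihood test of edgeR, with Benjamini-Hochberg adjustment over all tested genes, and a fold change of 2.5 or more. By this rule 3946 genes were higher in iCMs, 19.5% of those tested, and 3085 were lower, 15.2%. The genes called higher had a median log2 fold change of 2.97, and 913 of them were at least 32-fold higher. The genes called lower had a median of -2.32, and 235 were at least 32-fold lower. Over all tested genes the median was 0.188. The libraries of the 2 groups did not overlap for 73.8% of all tested genes, so where groups are said below not to overlap, this describes the values of those genes and is common among all genes. All adjusted p-values below come from this test, and a log2 value with its standard error (SE) is the difference of iCMs from aCMs. A list is described by how many of its members were called, and only members with enough counts in these libraries could be tested.

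Transcripts of contractile proteins of the adult heart were lower in iCMs compared to aCMs, while several of their fetal and atrial forms were higher. Of the 11 genes of the thick filament tested, 7 were lower and 3 higher in iCMs, with a median of -2.92, and of 12 genes of the thin filament 10 were lower and 1 higher, with a median of -2.55. The backgrounds were 15.2% lower and 19.5% higher. Myh6, the fast alpha myosin heavy chain of the adult mouse ventricle, was at 2649.6, 4594 and 2973 CPM in iCMs and 85048 and 68448 CPM in aCMs, 22.5-fold lower in iCMs (log2 -4.49, SE 0.34, adjusted p = 5.4e-06). Myh7, the slow beta heavy chain that the mouse ventricle uses before birth, was at 1146, 2246 and 871 CPM in iCMs and 1302 and 1470.0 CPM in aCMs. The iCM libraries spanned both aCM libraries for Myh7, which was not called (log2 0.04, SE 0.42, adjusted p = 0.95), so a difference in the beta chain did not exceed the spread, while the alpha chain differed in every library. Reads of these near-identical neighbors may be divided between them in a way the sources used here do not state. A lower level of a heart muscle gene in a bulk library cannot tell fewer muscle cells from less RNA per muscle cell.

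The 2 forms of troponin I differed in opposite directions. Tnni1, the slow skeletal form that the fetal heart uses, was at 884, 1057 and 1046 CPM in iCMs and 0.657 and 0.671 CPM in aCMs (log2 10.54, SE 0.73, adjusted p = 5e-06). Every iCM library was above 100 CPM and both aCM libraries were below 1 CPM. Tnni3, the adult cardiac form, was at 1223, 1588 and 1688 CPM in iCMs and 19003 and 15098 CPM in aCMs (log2 -3.51, SE 0.33, adjusted p = 2e-05), lower in every iCM library but still among the abundant transcripts there. The regulatory light chains divided in the same way. Myl7, the atrial form, was at 829, 891 and 717 CPM in iCMs and 6.44 and 14.6 CPM in aCMs (log2 6.26, SE 0.43). Myl2, the ventricular form, was at 2919.7, 3624 and 3771 CPM in iCMs and 26086 and 22930.1 CPM in aCMs (log2 -2.83, SE 0.32). The essential light chains followed, with atrial Myl4 at 824, 1185 and 769 CPM in iCMs and 15.5 and 31.1 CPM in aCMs (log2 5.30, SE 0.38) and ventricular Myl3 at 1161, 1546 and 1499.7 CPM in iCMs and 10198 and 11028 CPM in aCMs (log2 -2.92, SE 0.24). For each of these 4 light chain genes the 2 groups did not overlap, as for 73.8% of all tested genes. Mybphl, a myosin binding protein of atrial muscle, was the other thick filament gene higher in iCMs, at 33.7, 29.98 and 30.3 CPM in iCMs and 0.526 and 0.958 CPM in aCMs. In the thin filament, Actc1, cardiac actin, was at 3088, 5178 and 2908 CPM in iCMs and 21282 and 16514 CPM in aCMs (log2 -2.34, SE 0.33). Acta1, skeletal actin, was at 10.3, 17.9 and 12.6 CPM in iCMs and 544 and 792 CPM in aCMs (log2 -5.62, SE 0.29). The actin genes are close in sequence and their counts are therefore less certain than those of the troponins. Tpm2, a tropomyosin, did not pass the test at 68.8, 93.5 and 95.1 CPM in iCMs and 82.9 and 53.96 CPM in aCMs.

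**Figure D1:**
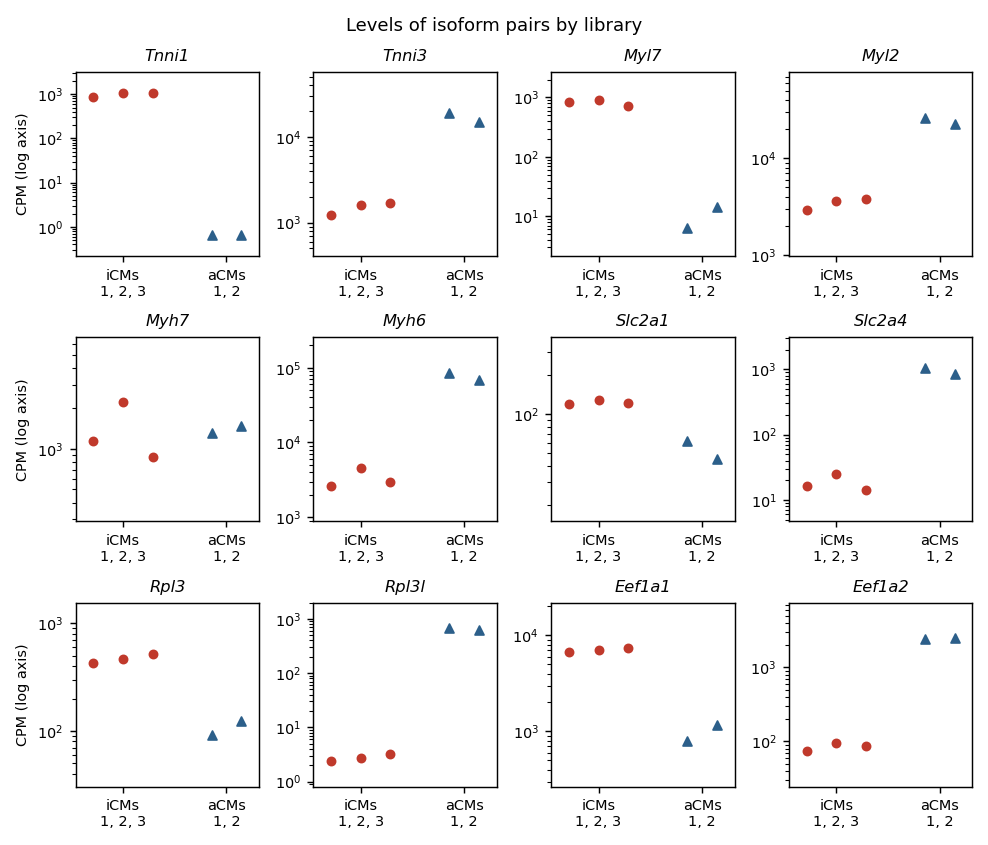
Normalized level in CPM on a log axis for 12 genes in each of the 3 iCM libraries (circles) and the 2 aCM libraries (triangles), arranged as pairs of isoforms. Tnni1 lies above 100 CPM in iCMs and below 1 CPM in aCMs, whereas Tnni3, Myl2, Myh6, Slc2a4, Rpl3l and Eef1a2 are higher in both aCM libraries, and Myh7 overlaps.

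All 19 genes of titin and the Z-disc were lower in iCMs, with a median of -2.90 and a range from -8.13 to -1.48. With library totals 14 of the 19 were lower. Ttn, the giant spring of the sarcomere, was at 538, 599.8 and 334 CPM in iCMs and 8743 and 5796 CPM in aCMs (log2 -3.89, SE 0.34, adjusted p = 1.3e-05). Tcap, which ties titin to the Z-disc, was at 103, 122 and 131 CPM in iCMs and 4688 and 3724 CPM in aCMs (log2 -5.15, SE 0.28). Actn2, the actin crosslinker of the Z-disc, was at 465, 765 and 481 CPM in iCMs and 4476 and 3959.9 CPM in aCMs (log2 -2.89, SE 0.28). The size of the difference varied widely among these proteins. Myot, an actin-binding Z-disc protein, was at 0.647, 0.221 and 0.266 CPM in iCMs and 128 and 103 CPM in aCMs (log2 -8.13, SE 0.43, adjusted p = 3.6e-06). Xirp2, an actin-binding protein of the intercalated disc, was at 4.80, 5.16 and 4.46 CPM in iCMs and 796 and 820.4 CPM in aCMs (log2 -7.39, SE 0.25, adjusted p = 1.3e-07). In both cases every aCM library was above every iCM library by more than 100-fold. Of 9 genes of the M-band and of sarcomere turnover 7 were lower and 0 higher, with a median of -3.23. Among them Trim54, a ubiquitin ligase of the sarcomere, was at 17.03, 13.8 and 14.1 CPM in iCMs and 685 and 754 CPM in aCMs (log2 -5.58, SE 0.20). Bag3, a cochaperone of the Z-disc, was at 223, 229.6 and 230.2 CPM in iCMs and 675 and 594 CPM in aCMs (log2 -1.48, SE 0.18). Without aCM replicate 1 Synpo2l, an actin-bundling protein, was at log2 -1.31 and under the fold threshold, against -1.48 with it. The remaining pair, Obsl1 and Trim55, did not pass the fold threshold, with log2 differences of -1.12 and -0.75.

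Several promoters of the Z-disc genes share a sequence feature that the choice of genes did not use. MEF2 proteins are transcription factors of muscle that bind an AT-rich site. The letters CTA, any 4 bases and TAG, a loose form of such a site that reads the same on both strands, were searched in the 300 bases around the start of each gene in RefSeq, of which 250 lie before the start, and were found in 7 of the 14 Z-disc genes, among the 19, that have an entry, against 3.7% of all 27025 promoters. The 7 were Ttn, Ldb3, Myoz2, Synpo2l, Des, Xirp2 and Flnc, and all were lower in iCMs. Among tested genes the share was 3.08%, among those lower in iCMs 4.66% and among those higher 2.3%. Thin filament genes had these letters in 0 of 11 promoters and thick filament genes in 1 of 11. Genes of the M-band and turnover had them in 1 of 5, that of Obsl1, which was not called. Genes of the calcium release unit had them in 1 of 8. Mef2a, itself a MEF2 factor, was at 174, 201 and 169 CPM in iCMs and 257 and 218 CPM in aCMs (log2 -0.39). Mef2c was at 46.8, 54.1 and 51.9 CPM in iCMs and 116 and 109.7 CPM in aCMs (log2 -1.15), and neither reached the fold threshold. The 4 matches below are those nearest to the start among the Z-disc genes called lower and lying wholly before the start, in build GRCm38.p6, read in the direction of the gene, with the matched letters in capitals.
Myoz2, chr3:123034991-123035040, minus strand: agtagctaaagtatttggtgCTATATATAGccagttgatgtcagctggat
Xirp2, chr2:67445908-67445957, plus strand: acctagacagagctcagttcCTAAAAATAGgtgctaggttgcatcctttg
Synpo2l, chr14:20668434-20668483, minus strand: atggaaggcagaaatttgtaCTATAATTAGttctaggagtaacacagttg
Flnc, chr6:29432980-29433029, plus strand: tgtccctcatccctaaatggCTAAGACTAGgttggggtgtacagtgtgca
The middle bases are A or T alone in 3 of the 4 matches, and that of Flnc holds other bases and is thus not an AT-rich site. These letters mark a match and not a bound site, and the matches begin between 33 and 153 bases before the start.

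Transcripts of proteins that join heart muscle cells to each other and to the matrix were lower as well. Of 12 genes of the intercalated disc 8 were lower and 1 higher in iCMs, with a median of -1.93, and with library totals 5 were lower. The 1 higher, Gja5, was not called without aCM replicate 1 (log2 2.08, adjusted p = 0.11) or without aCM replicate 2 (2.42, adjusted p = 0.075). Dsp, the desmosomal plakin, was at 99.2, 133 and 90.8 CPM in iCMs and 1328 and 1207 CPM in aCMs (log2 -3.56, SE 0.25, adjusted p = 3.6e-06). Cdh2, the cadherin of the disc, was at 139.6, 173 and 133 CPM in iCMs and 817 and 628 CPM in aCMs (log2 -2.28, SE 0.21). Vcl, a linker of actin to junctions of many cell types, was at 112, 108 and 83.5 CPM in iCMs and 129 and 100.1 CPM in aCMs and Tjp1, of tight junctions, at 57.98, 58.8 and 48.9 CPM in iCMs and 78.7 and 77.5 CPM in aCMs, and neither was called. Of 15 genes of the dystrophin complex and of membrane repair 12 were lower and 0 higher, with a median of -3.36. With library totals 10 were lower. Trim72, which seals tears of the muscle membrane, was at 8.63, 11.7 and 8.98 CPM in iCMs and 562 and 675 CPM in aCMs (log2 -5.98, SE 0.37). The sarcoglycan Sgca was at 14.7, 15.1 and 16.1 CPM in iCMs and 378 and 317 CPM in aCMs (log2 -4.51, SE 0.36). Utrn, the dystrophin relative found in most cells, was at 73.02, 68.3 and 68.03 CPM in iCMs and 74.5 and 82.5 CPM in aCMs and was not called, whereas Dmd, dystrophin, was at 20.7, 21.3 and 14.4 CPM in iCMs and 305 and 138 CPM in aCMs (log2 -3.56, SE 0.42).

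Genes of calcium release and of the calcium pump were lower in iCMs, and an atrial inhibitor of the pump was higher. Of 13 tested genes of the release unit 10 were lower and 1 higher, or 2 higher with library totals, with a median of -3.34. Ryr2, the release channel, was at 108, 118 and 80.9 CPM in iCMs and 1588 and 1327 CPM in aCMs (log2 -3.83, SE 0.26, adjusted p = 3.4e-06). Casq2, the calcium buffer of the store, was at 238, 345 and 201 CPM in iCMs and 2985 and 2303 CPM in aCMs (log2 -3.34, SE 0.28). Hrc, a second calcium-binding protein of the store, was at 36.9, 38.6 and 31.7 CPM in iCMs and 3500.5 and 2652 CPM in aCMs (log2 -6.43, SE 0.84, adjusted p = 0.00046). Both aCM libraries exceeded each iCM library for all 3, where 73.8% of all tested genes had groups that did not overlap. Tmem38a, the potassium channel that balances charge during release, was at 44.8, 54.1 and 37.8 CPM in iCMs and 1248 and 958 CPM in aCMs (log2 -4.60, SE 0.29). Cmya5, a scaffold of the dyad, was at 24.8, 24.7 and 19.3 CPM in iCMs and 914 and 732 CPM in aCMs (log2 -5.16, SE 0.24). Fkbp1b, the small partner of the release channel, was the 1 member called higher, from low counts, at 6.52, 5.45 and 4.85 CPM in iCMs and 0.263 and 1.34 CPM in aCMs (log2 2.72, SE 0.69, adjusted p = 0.0085), and without aCM replicate 1 it was not called (log2 2.10, adjusted p = 0.065). Of 11 genes of calcium uptake and extrusion 4 were lower and 1 higher, beside backgrounds of 15.2% and 19.5%. The share called higher was thus below its background. Their median of -0.53 became 0.19 with library totals, where 3 were lower and 4 higher. Atp2a2, the SERCA pump of heart muscle, was at 879.5, 971 and 648 CPM in iCMs and 20259 and 17328 CPM in aCMs (log2 -4.50, SE 0.37, adjusted p = 8.5e-06). Its inhibitor Pln, phospholamban, was at 833, 844 and 800.3 CPM in iCMs and 8173 and 7567 CPM in aCMs (log2 -3.25, SE 0.23). Its atrial inhibitor Sln, sarcolipin, was at 144, 109 and 109 CPM in iCMs and 0.526 and 4.12 CPM in aCMs (log2 5.62, SE 0.70). Sln was above 100 CPM in every iCM library and below 5 CPM in both aCM libraries. Atp2b1, the calcium pump of the outer membrane in many cells, was at 80.4, 95.3 and 80.8 CPM in iCMs and 90.03 and 81.9 CPM in aCMs, and Mcu, the calcium channel of mitochondria, at 31.1, 28.1 and 20.7 CPM in iCMs and 39.4 and 37.6 CPM in aCMs, and neither was called.

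Ion channels of the adult action potential were lower in iCMs. Of 17 potassium channel genes 16 were lower and 0 higher, with a median of -2.96, and the remaining member was Kcne1, a subunit of the slow delayed rectifier, at 56.3, 27.8 and 40.6 CPM in iCMs and 23.00 and 13.9 CPM in aCMs (log2 1.18, SE 0.37), above both aCM libraries but short of the fold threshold. Without aCM replicate 1 it was called higher, at log2 1.62 (adjusted p = 0.04), and also without iCM replicate 2, at 1.41 (adjusted p = 0.018). Kcnj11, the pore of the ATP-sensitive channel, was at 9.49, 11.01 and 9.24 CPM in iCMs and 314 and 333 CPM in aCMs (log2 -5.03, SE 0.26, adjusted p = 1e-06). Kcnk3, a background channel, was at 18.4, 18.5 and 17.6 CPM in iCMs and 563 and 642 CPM in aCMs (log2 -5.05, SE 0.22). Kcnd2, a pore of the transient outward current, was at 1.24, 1.99 and 1.13 CPM in iCMs and 43.9 and 31.7 CPM in aCMs (log2 -4.69, SE 0.47). Its partner Kcnip2 was at 20.5, 17.8 and 17.4 CPM in iCMs and 266 and 309 CPM in aCMs (log2 -3.95, SE 0.27). The channels that set the resting potential and those that repolarize the cell were thus both lower, and Kcnj2, the main inward rectifier, was at 17.01, 18.1 and 11.5 CPM in iCMs and 87.9 and 85.2 CPM in aCMs (log2 -2.47, SE 0.24). Of 12 sodium and calcium channel genes 6 were lower and 2 higher, with a median of -1.26. Scn4b, a beta subunit of sodium channels, was at 0.323, 0.589 and 0.133 CPM in iCMs and 108 and 94.6 CPM in aCMs (log2 -8.08, SE 0.51, adjusted p = 2.4e-06). Cacna1c, the pore of the L-type calcium channel, was at 33.9, 38.5 and 26.9 CPM in iCMs and 289.9 and 278 CPM in aCMs (log2 -3.10, SE 0.21). The T-type channel Cacna1g, which the fetal heart uses, went the other way at 111, 96.1 and 113 CPM in iCMs and 31.8 and 21.3 CPM in aCMs (log2 2.01, SE 0.33, adjusted p = 0.00061), and so did Cacna1d, a second L-type pore, at 5.18, 3.50 and 6.18 CPM in iCMs and 1.18 and 1.63 CPM in aCMs (log2 1.80, SE 0.45). Without aCM replicate 1 Cacna1d was not called (log2 1.63, adjusted p = 0.06). Among 13 genes of pacemaking and conduction 4 were lower and 2 higher, with a median of -0.92, and without iCM replicate 1 the counts were 2 lower and 1 higher, with 1 higher without iCM replicate 2. With library totals 2 were lower and 4 higher. Over all tested genes 15.2% were lower and 19.5% higher in the main fit. In that fit the share called higher was below background here and among the sodium and calcium channels. Hcn2, a pacemaker channel, was at 2.08, 1.03 and 2.39 CPM in iCMs and 46.7 and 52.6 CPM in aCMs (log2 -4.77, SE 0.39). Shox2, a transcription factor of the sinus node, was at 8.27, 8.62 and 9.18 CPM in iCMs and 1.05 and 0.863 CPM in aCMs (log2 3.19, SE 0.35).

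Of 11 genes of the atrium 8 were higher and 3 lower in iCMs, with a median of 2.41, and of 6 genes of the ventricle 4 were lower and 0 higher, or 2 higher with library totals, with a median of -2.47. Nppa, the atrial natriuretic peptide, was at 1127, 1673 and 887 CPM in iCMs and 93.6 and 367 CPM in aCMs (log2 2.41, SE 0.58, adjusted p = 0.0078). Fitted without the CSC libraries, Nppa was not called (log2 2.4, adjusted p = 0.059), and 7 of the 11 atrial genes were higher. Bmp10, a growth factor of trabecular and atrial muscle, was at 44.3, 38.7 and 20.1 CPM in iCMs and 2.37 and 1.63 CPM in aCMs (log2 4.12, SE 0.56). Nr2f2, a transcription factor of atrial identity that is also made by veins and fibroblasts, was at 83.6, 74.8 and 75.1 CPM in iCMs and 9.99 and 17.9 CPM in aCMs (log2 2.47, SE 0.31). The 3 atrial genes that were lower are potassium channels, Kcna5, Kcnj3 and Kcnj5. Irx4, a factor of ventricular identity, was at 19.6, 26.6 and 22.2 CPM in iCMs and 109 and 87.7 CPM in aCMs (log2 -2.11, SE 0.22).

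Of 20 cardiac transcription factors 4 were lower, 2 higher and 14 not called. The backgrounds were 15.2% lower and 19.5% higher, so at the fold threshold calls were not more frequent than among all genes. The median of the 20 factors, -0.76, stood at -0.05 with library totals, where 2 were lower and 3 higher. Gata6, a zinc finger factor of the early heart, was at 96.1, 117 and 87.1 CPM in iCMs and 111 and 88.6 CPM in aCMs (log2 0.01, SE 0.28, adjusted p = 0.98). Tbx20 was at 54.9, 74.2 and 55.3 CPM in iCMs and 85.8 and 106 CPM in aCMs and Tbx5 at 22.5, 29.4 and 20.7 CPM in iCMs and 46.5 and 41.8 CPM in aCMs, both T-box factors, and neither reached the fold threshold (log2 -0.64 and -0.87). Gata4 and Hand2 were at log2 -1.27 and -1.28 with adjusted p below 0.05 and missed the fold threshold, but without aCM replicate 2 they were called lower, at -1.40 (adjusted p = 0.0087) and -1.38 (adjusted p = 0.0022). Hand2 was also called without iCM replicate 2, at -1.35 (adjusted p = 0.0014). Myocd, the coactivator of SRF in heart and smooth muscle, was at 29.4, 42.6 and 33.2 CPM in iCMs and 206 and 205 CPM in aCMs (log2 -2.56, SE 0.21, adjusted p = 8e-06). By adjusted p alone 13 of the 20 were lower, a larger share than the 4585 of all 20254 tested genes. The 2 called higher became 1 without iCM replicate 1 or 2 and 0 without aCM replicate 2. Among 17 receptors of the muscle membrane 9 were lower and 4 higher, with a median of -1.72, and with library totals 7 were lower and 6 higher. Adrb1, the beta receptor for noradrenaline, was at 4.69, 7.37 and 5.05 CPM in iCMs and 44.3 and 41.9 CPM in aCMs (log2 -2.92, SE 0.28). Adra1a, an alpha receptor, was at 0.323, 0.184 and 0.133 CPM in iCMs and 53.2 and 43.4 CPM in aCMs (log2 -7.69, SE 0.60). Chrm2, the muscarinic receptor of the vagus, was at 10.03, 14.5 and 5.52 CPM in iCMs and 206 and 125 CPM in aCMs (log2 -4.03, SE 0.37). For each of these receptors of the autonomic nerves both aCM libraries were above all iCM libraries, and groups that did not overlap were found for 73.8% of all tested genes. Agtr1a, the main angiotensin receptor, was at 3.61, 3.76 and 2.13 CPM in iCMs and 59.1 and 41.9 CPM in aCMs (log2 -3.98, SE 0.37). Agtr2, the fetal one, was at 2.26, 1.66 and 2.33 CPM in iCMs and 0.131 and 0 CPM in aCMs, from 1 count in aCMs. Its log2 difference of 5.11 depended on single libraries, at 9.23 without aCM replicate 1 and 3.97 without aCM replicate 2. Ednrb, an endothelin receptor of the vessel wall, was at 153, 161 and 149 CPM in iCMs and 14.7 and 26.9 CPM in aCMs (log2 2.88, SE 0.29). Npr3, the clearance receptor for natriuretic peptides, was at 142, 159.6 and 150.2 CPM in iCMs and 4.60 and 14.2 CPM in aCMs (log2 3.98, SE 0.42), both higher in iCMs.

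Nearly all mitochondrial energy genes examined were lower in iCMs. Each of the 25 nuclear-encoded subunits of oxidative phosphorylation was lower, within a narrow range from -2.69 to -1.52 and with a median of -2.11. With library totals 14 of the 25 were lower. Atp5b, the catalytic subunit of ATP synthase, was at 1756, 2275 and 1792 CPM in iCMs and 8087 and 7667 CPM in aCMs (log2 -2.02, SE 0.26, adjusted p = 0.00013). Of 17 genes of pyruvate entry and the citrate cycle 17 were lower, with a median of -2.38, led by Ogdh, of the oxoglutarate dehydrogenase complex, at 225, 212 and 209.5 CPM in iCMs and 4148 and 3525 CPM in aCMs (log2 -4.15, SE 0.21, adjusted p = 1e-06). Of 22 genes of fatty acid uptake and oxidation 21 were lower, with a median of -2.76. Cpt2, an enzyme that brings fatty acids into the matrix, was at 35.2, 27.4 and 34.3 CPM in iCMs and 484 and 413 CPM in aCMs (log2 -3.80, SE 0.20). Hadhb, of the trifunctional enzyme, was at 77.03, 75.5 and 78.1 CPM in iCMs and 688 and 736 CPM in aCMs (log2 -3.21, SE 0.18). Ucp3, a mitochondrial carrier of muscle, was at 1.67, 0.737 and 3.86 CPM in iCMs and 105 and 167 CPM in aCMs (log2 -6.09, SE 0.60). The member that was not called was Cpt1b, the muscle gate of fatty acid oxidation, at 2.64, 5.49 and 50.3 CPM in iCMs and 108 and 122 CPM in aCMs (log2 -2.59, SE 1.08, adjusted p = 0.085). Replicate 3 of iCMs held far more Cpt1b than the other iCM libraries, and without it Cpt1b was called lower, at log2 -4.81 (adjusted p = 0.00012). Cpt1b overlaps a neighboring gene, and the sources used here do not state whether strand was used in counting.

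The fuels other than fatty acids gave the same direction. Of 12 genes of ketone and branched-chain amino acid use 10 were lower and 0 higher, with a median of -2.34. Bdh1, which starts the use of ketone bodies, was at 3.05, 6.26 and 0.998 CPM in iCMs and 391 and 317 CPM in aCMs (log2 -6.64, SE 0.62). Oxct1, the next step, was at 102, 144 and 76.4 CPM in iCMs and 2444 and 2211 CPM in aCMs (log2 -4.44, SE 0.30, adjusted p = 2.8e-06). In lipid storage 7 of 9 genes were lower, with a median of -2.21, and 5 were lower with library totals. Lpl, the lipase that frees fatty acids from lipoproteins, was at 284, 367 and 271 CPM in iCMs and 9384 and 12814 CPM in aCMs (log2 -5.17, SE 0.27). Dgat2, which makes triglyceride, was at 10.00, 12.4 and 11.8 CPM in iCMs and 614 and 514 CPM in aCMs (log2 -5.63, SE 0.23). Dgat1, the other enzyme of this step, was at 30.8, 30.8 and 28.99 CPM in iCMs and 27.7 and 30.7 CPM in aCMs, where the groups overlapped. Shape and fusion genes of mitochondria were lower in 10 of 12 cases, or 7 with library totals, with a median of -2.11. Among them was Mfn2, a fusion GTPase, at 122, 151 and 113 CPM in iCMs and 1332 and 1162 CPM in aCMs (log2 -3.28, SE 0.26). Chchd10, of the cristae, was at 128, 174 and 148 CPM in iCMs and 1504 and 1383 CPM in aCMs (log2 -3.27, SE 0.21). Fis1, of fission, was at 133, 136 and 176 CPM in iCMs and 156 and 164 CPM in aCMs and was not called. Energy transfer followed, with Ckmt2, the creatine kinase of heart mitochondria, at 44.9, 65.5 and 23.8 CPM in iCMs and 3664 and 2836 CPM in aCMs (log2 -6.18, SE 0.41). Mb, myoglobin, was at 1159, 991 and 1169.9 CPM in iCMs and 33993 and 30673 CPM in aCMs (log2 -4.87, SE 0.30).

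Most genes of glucose use were lower in iCMs or not called. Of 21 genes of glycolysis 12 were lower and 1 higher, with a median of -1.51, and with library totals 7 were lower and 4 higher, with 2 higher without aCM replicate 1. Slc2a4, the insulin-sensitive glucose transporter, was at 16.3, 24.7 and 14.1 CPM in iCMs and 1026 and 834 CPM in aCMs (log2 -5.66, SE 0.49, adjusted p = 2.2e-05). Pfkm, the muscle phosphofructokinase, was at 133, 151 and 161 CPM in iCMs and 1817 and 1622 CPM in aCMs (log2 -3.53, SE 0.28). The gene called higher was Slc16a3, the transporter that exports lactate, at 19.1, 15.4 and 14.8 CPM in iCMs and 3.94 and 3.74 CPM in aCMs (log2 2.10, SE 0.34). Ldha, the lactate dehydrogenase of fetal and fast muscle, was at 856, 865 and 815 CPM in iCMs and 1064 and 1005 CPM in aCMs and was not called, while Ldhb, the heart form, was at 359, 528 and 395 CPM in iCMs and 3484 and 3112 CPM in aCMs (log2 -2.95, SE 0.34). Of 12 glycogen genes 10 were lower and 0 higher, with a median of -2.63, among them Ppp1r3a, the muscle subunit that targets phosphatase to glycogen, at 10.5, 15.1 and 10.3 CPM in iCMs and 335 and 239 CPM in aCMs (log2 -4.58, SE 0.43).

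Genes for the synthesis of sterols and fatty acids were higher in iCMs. Of 18 genes 12 were higher and 0 lower, with a median of 1.52. Scd2, a desaturase of growing cells, was at 301, 298 and 265 CPM in iCMs and 19.5 and 21.4 CPM in aCMs (log2 3.82, SE 0.24, adjusted p = 2.2e-06). Sqle, which commits squalene to cholesterol, was at 50.3, 47.1 and 48.5 CPM in iCMs and 5.52 and 6.90 CPM in aCMs (log2 2.96, SE 0.21). Among 18 regulators of metabolism 11 were lower and 0 higher, with a median of -1.68, and with library totals 8 were lower and 2 higher. Ppargc1a, the coactivator of mitochondrial biogenesis, was at 18.9, 26.1 and 16.8 CPM in iCMs and 166 and 151 CPM in aCMs (log2 -2.95, SE 0.27, adjusted p = 1.4e-05). Ppara, the receptor that drives fatty acid oxidation, was at 0.863, 1.33 and 1.73 CPM in iCMs and 14.9 and 24.2 CPM in aCMs (log2 -3.92, SE 0.50). Esrrb, an estrogen-related receptor, was at 3.32, 3.72 and 1.60 CPM in iCMs and 60.2 and 57.3 CPM in aCMs (log2 -4.33, SE 0.34). Perm1, a muscle regulator that acts with these receptors, was at 14.8, 19.4 and 14.3 CPM in iCMs and 663 and 665 CPM in aCMs (log2 -5.36, SE 0.34). Rxra, the general partner of these receptors, was at 111, 99.9 and 117 CPM in iCMs and 102 and 105 CPM in aCMs and was not called, while Rxrg, the muscle form of the retinoid receptor, was at 1.32, 1.07 and 0.798 CPM in iCMs and 96.7 and 100.4 CPM in aCMs (log2 -6.49, SE 0.28). The letters AAGGTCA, the half-site of estrogen-related receptors, were found on either strand in 1 of 17 promoters of oxidative phosphorylation, 0 of 15 of the citrate cycle and 1 of 20 of fatty acid oxidation, against 4.66% of all promoters, and a window without these letters says nothing of the receptor.

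A second view that does not depend on scaling is the ratio of 2 genes within a library. The 24 pairs set a fetal, atrial or widely used form over its adult or muscle form, except Casq1 over Casq2 of calsequestrin. The log2 ratio was higher in every iCM library than in every aCM library in 24 pairs. Among single genes the groups did not overlap for 73.8% of those tested. The pairs were chosen with earlier results of these data known, and many hold genes described above, so this count is not independent evidence. In 9 of the 24 the first gene had more counts than the second in all iCM libraries and fewer in all aCM libraries, without correction for gene length. With 10 ways to divide 5 libraries into groups of 3 and 2, an exact permutation test of a single ratio cannot go below 0.1, and no test of the ratios was run. The ratio of Tnni1 to Tnni3 was at log2 -0.47, -0.59 and -0.69 in iCMs and -14.33 and -14.10 in aCMs, a difference of 13.63. The aCM value rests on few Tnni1 counts, and a prior count of 0.5 in place of 2 gave a difference of 13.94. Myl7 over Myl2 differed by 9.19 and Myl4 over Myl3 by 8.28, while Myh7 over Myh6 was at -1.21, -1.03 and -1.77 in iCMs and -6.03 and -5.54 in aCMs. Myosin heavy chains had thus moved less far in ratio than the light chains and troponin I, and Myh6 had more counts than Myh7 in every library.

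Pairs of energy genes moved in the same direction. Cox8a over Cox8b, the general and the muscle form of a cytochrome oxidase subunit, was at 1.47, 1.94 and 1.41 in iCMs and -2.24 and -2.29 in aCMs. For Cox7a2 over Cox7a1 the ratios were 2.06, 2.18 and 2.16 in iCMs and -1.17 and -1.19 in aCMs, and for Cox6a1 over Cox6a2 -0.45, -0.36 and -0.22 in iCMs and -5.51 and -5.08 in aCMs. The order of the forms therefore turned round for 2 of these 3 subunits. Slc2a1 over Slc2a4, the general and the insulin-sensitive glucose transporter, was at 2.85, 2.37 and 3.10 in iCMs and -4.04 and -4.19 in aCMs. The smallest difference among the 24 was that of Pygb over Pygm, the brain and muscle glycogen phosphorylases, at 1.20, with 0.26, 0.44 and 0.42 in iCMs and -0.84 and -0.81 in aCMs. Cpt1a over Cpt1b was at 3.93, 2.94 and -0.07 in iCMs and -0.30 and -0.60 in aCMs, and replicate 3 of iCMs stood close to the aCM libraries.

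Heart and skeletal muscle also use their own forms of the translation machinery. Rpl3l, the muscle form of ribosomal protein L3, was at 2.43, 2.69 and 3.19 CPM in iCMs and 668 and 628 CPM in aCMs (log2 -7.88, SE 0.22, adjusted p = 7.9e-08). Rpl3, the general form, was at 427, 467 and 519 CPM in iCMs and 91.2 and 123 CPM in aCMs (log2 2.13, SE 0.26). Their ratio, Rpl3 over Rpl3l, was at 7.43, 7.40 and 7.29 in iCMs and -2.87 and -2.34 in aCMs, after Tnni1 to Tnni3 the widest of the 24 differences. Eef1a2, the muscle and nerve form of the elongation factor, was at 73.7, 94.9 and 85.5 CPM in iCMs and 2397 and 2497 CPM in aCMs (log2 -4.85, SE 0.21). Eef1a1, the general form, was at 6626, 6955 and 7276 CPM in iCMs and 803 and 1171 CPM in aCMs (log2 2.82, SE 0.32). In all iCM libraries the general form had more counts than the muscle form in both cases, and in both aCM libraries it had fewer. Of 22 ribosomal proteins tested 6 were higher and 0 lower, with a median of 1.14, and 21 were higher with library totals and 11 without aCM replicate 2. Rps14, of the small subunit, was at 676, 570.4 and 784 CPM in iCMs and 130.3 and 199 CPM in aCMs (log2 2.04, SE 0.35). The 6 of 22 ribosomal proteins called higher stand beside a background of 19.5%.

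Genes of cell division were higher in iCMs, with a wide spread. Of 28 genes of mitosis 23 were higher and 0 lower, with a median of 3.57. Cdk1, the kinase that starts mitosis, was at 43.99, 52.6 and 25.4 CPM in iCMs and 1.45 and 2.20 CPM in aCMs (log2 4.45, SE 0.91, adjusted p = 0.0046). Birc5, survivin, was at 31.8, 52.4 and 21.1 CPM in iCMs and 0.789 and 1.53 CPM in aCMs (log2 4.87, SE 1.18, adjusted p = 0.011). Mki67, the proliferation marker, was at 48.03, 85.5 and 31.9 CPM in iCMs and 6.70 and 4.50 CPM in aCMs (log2 3.31, SE 1.12, adjusted p = 0.042). Replicate 2 of iCMs was the highest and replicate 3 the lowest for each of these. Cenpf, of the kinetochore, had the opposite sign at 12.6, 20.8 and 5.52 CPM in iCMs and 35.9 and 31.1 CPM in aCMs, and was not called. These calls depended on single libraries. Without aCM replicate 1 or without aCM replicate 2 the count fell to 2, without iCM replicate 2 to 11, and without the filter on low counts to 2, while the median of the list stayed between 3.29 and 4.29 in all settings. Without aCM replicate 1 Cdk1 was at log2 4.24 (adjusted p = 0.038) and without aCM replicate 2 at 4.84 (adjusted p = 0.034). Birc5 was not called without aCM replicate 1 (4.55, adjusted p = 0.067) or without aCM replicate 2 (5.50, adjusted p = 0.058). Mki67 was not called without aCM replicate 1 (3.65, adjusted p = 0.12), aCM replicate 2 (3.07, adjusted p = 0.18) or iCM replicate 2 (2.85, adjusted p = 0.086), nor with the replicate number as a block (3.21, adjusted p = 0.068). Of 29 genes of DNA replication 13 were higher and 0 lower, with a median of 1.77, and the count ranged from 3 without aCM replicate 2, 6 without aCM replicate 1 and 8 without iCM replicate 1 to 22 with library totals. Pcna, the sliding clamp of DNA polymerase, was at 167, 149 and 148 CPM in iCMs and 32.3 and 33.1 CPM in aCMs (log2 2.24, SE 0.56, adjusted p = 0.01), and it was not called without aCM replicate 1 (2.26, adjusted p = 0.068) or aCM replicate 2 (2.29, adjusted p = 0.068).

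The promoters of the mitosis genes have a feature in common. The cell cycle homology region, written TTTGAA, is a site at which a repressor complex holds genes of mitosis silent in resting cells. On either strand it was found in 19 of the 24 mitosis promoters with an entry, against 18.1% of all promoters. The share was 12.4% among tested genes, 14.5% among genes higher in iCMs and 11.7% among those lower. DNA replication genes had this region in 3 of 24. The letters TTTCCCGC, a form of the E2F site, stood on either strand in 0 of 24 mitosis genes and 5 of 24 replication genes. Their share was 1.11% among all promoters and 1.85% among those of tested genes. Neither motif contains the other. Apart from that of Mki67, at 98 bases, the nearest match in each mitosis gene that had it began within 40 bases of the start. The 4 shown are those nearest to the start among the mitosis genes called higher and lying wholly before the start. They are given in build GRCm38.p6, read in the direction of the gene, with the matched letters in capitals. TTCAAA is the same site on the other strand.
Cdk1, chr10:69352913-69352947, minus strand: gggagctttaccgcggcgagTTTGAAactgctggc
Cdc20, chr4:118437344-118437381, minus strand: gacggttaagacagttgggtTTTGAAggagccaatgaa
Kif11, chr19:37376343-37376381, plus strand: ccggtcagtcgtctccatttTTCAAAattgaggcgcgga
Top2a, chr11:99024190-99024232, minus strand: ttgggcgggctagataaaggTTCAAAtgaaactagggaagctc
The 4 matches begin between 15 and 23 bases before the start.

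Regulators of G1 and of cycle exit were mixed in role. Of 24 tested 11 were higher and 0 lower, with a median of 1.29, and the group holds both drivers and inhibitors. Cdkn2a, which encodes the inhibitors p16 and p19, was at 125, 91.5 and 152 CPM in iCMs and 0.131 and 0.192 CPM in aCMs, 715-fold higher over pooled counts (95% counting interval 244 to 3466). Cdkn2b, the inhibitor p15, was at 44.3, 32.8 and 50.6 CPM in iCMs and 0.657 and 1.05 CPM in aCMs (log2 5.59, SE 0.36, adjusted p = 2.4e-06). Cdkn1c, the imprinted inhibitor p57, was at 169, 242 and 220.4 CPM in iCMs and 54.2 and 67.2 CPM in aCMs (log2 1.79, SE 0.28). Among drivers, E2f1 was at 22.05, 20.5 and 16.7 CPM in iCMs and 5.26 and 5.94 CPM in aCMs (log2 1.82, SE 0.25). Ccnd1, cyclin D1, was at 162, 125 and 162 CPM in iCMs and 109 and 87.7 CPM in aCMs, not called. Trp53, the p53 gene, was at 136, 127 and 112 CPM in iCMs and 26.5 and 29.4 CPM in aCMs (log2 2.16, SE 0.21). Of 8 oncofetal genes 4 were higher and 1, Sall4 (log2 -2.77), was lower, or 0 lower with library totals and without iCM replicate 1, iCM replicate 3 or aCM replicate 2. Igf2bp2, an RNA-binding protein, was at 73.05, 64.05 and 78.3 CPM in iCMs and 5.13 and 6.33 CPM in aCMs (log2 3.64, SE 0.23). Of 100 cell cycle genes that the study had listed from these samples 58 were higher, or 38 without aCM replicate 1, and 13 lower, and of 76 heart genes 16 were higher and 39 lower, but the study chose them on these libraries and they are not independent evidence of direction.

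Imprinted genes, which are expressed from 1 parental copy and many of which promote fetal growth, were higher in iCMs in 17 of 20 cases and lower in 0, with a median of 3.63, or 2.99 with genes of 3 or fewer aCM counts at their bound or pooled ratio. H19, a noncoding RNA of the fetal growth locus, was at 4829, 6327 and 5445 CPM in iCMs and 1.58 and 10.5 CPM in aCMs (log2 9.79, SE 1.01, adjusted p = 7.8e-05). Its neighbor Igf2, the fetal growth factor, was at 3065, 3018 and 2695 CPM in iCMs and 14.2 and 16.7 CPM in aCMs (log2 7.56, SE 1.05, adjusted p = 0.00063). Plagl1, a transcription factor that controls other imprinted genes, was at 641, 924 and 757 CPM in iCMs and 7.89 and 5.85 CPM in aCMs (log2 6.82, SE 0.46). Mest was at 475, 720.2 and 428 CPM in iCMs and 7.89 and 14.4 CPM in aCMs (log2 5.59, SE 0.43). Dlk1, a Notch-like ligand of fetal tissues, was at 77.6, 91.9 and 93.1 CPM in iCMs and 0.131 and 0.288 CPM in aCMs (log2 8.61, SE 0.37). Every iCM library was above both aCM libraries for each of these 5, against 73.8% of all tested genes whose groups did not overlap. The 3 members not called were Gnas, Igf2r and Zim1, and Igf2r, the receptor that clears Igf2, was at 289, 342 and 251 CPM in iCMs and 217 and 234 CPM in aCMs.

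Genes of BMP, TGF-beta and activin signaling and of Wnt signaling were higher in iCMs more often than lower. The differentiation protocol used BMP-4, Activin A and Wnt factors, and no Notch factor. Of 27 tested genes of BMP, TGF-beta and activin signaling 16 were higher and 0 lower, with a median of 1.61. Inhba, the activin A subunit, was at 28.1, 27.03 and 28.00 CPM in iCMs and 0.394 and 1.15 CPM in aCMs (log2 5.09, SE 0.48, adjusted p = 1.9e-05). Grem1, a secreted BMP antagonist, was at 32.3, 25.6 and 26.7 CPM in iCMs and 0.394 and 0.383 CPM in aCMs (log2 6.17, SE 0.43). Id3, a target of BMP signals, was at 378, 276 and 399.5 CPM in iCMs and 33.9 and 53.7 CPM in aCMs (adjusted p = 8.9e-05). The receptors Bmpr1a and Bmpr2 were not called, at log2 -0.30 and 0.03. Of 28 Wnt genes 14 were higher and 3 lower, with a median of 2.06, and 1 was lower without aCM replicate 1 or with library totals. Dkk3, a secreted protein of the Dickkopf family, was at 50.97, 54.8 and 53.7 CPM in iCMs and 2.37 and 4.41 CPM in aCMs (log2 3.95, SE 0.38). Fzd2, a Wnt receptor, was at 39.5, 29.6 and 32.5 CPM in iCMs and 4.99 and 5.85 CPM in aCMs (log2 2.64, SE 0.31). Axin2, a target of canonical Wnt signaling, was at 4.80, 6.45 and 4.46 CPM in iCMs and 6.05 and 3.93 CPM in aCMs and was not called, and the ligand Wnt9a, among the 3 lower, was at 1.32, 2.10 and 2.39 CPM in iCMs and 7.49 and 10.9 CPM in aCMs (log2 -2.26, SE 0.40). Of 12 Notch genes 2 were higher and 2 lower, near the backgrounds of 19.5% and 15.2%, or 4 higher and 1 lower without aCM replicate 2 and 7 higher and 0 lower with library totals. Jag1, a Notch ligand, was at 93.5, 86.8 and 107 CPM in iCMs and 11.04 and 19.2 CPM in aCMs (log2 2.66, SE 0.27).

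Genes of the rapid response to stimuli were far higher in iCMs. Of 23 immediate early genes 21 were higher and 0 lower, with a median of 3.18. Fosb, an AP-1 subunit, was at 973, 884 and 1026 CPM in iCMs and 0.920 and 1.53 CPM in aCMs (log2 9.57, SE 0.71, adjusted p = 7.5e-06). Atf3, a stress factor, was at 382, 343 and 334 CPM in iCMs and 7.36 and 8.05 CPM in aCMs (log2 5.51, SE 0.93, adjusted p = 0.0019). Nr4a2, an orphan nuclear receptor, was at 72.05, 69.5 and 68.5 CPM in iCMs and 1.58 and 1.34 CPM in aCMs (log2 5.59, SE 0.32). Fosb was therefore above 100 CPM in every iCM library and the groups were far apart. Of 19 tested chemokine and cytokine genes 14 were higher and 1 lower, or 2 lower without aCM replicate 2, with a median of 5.73, or 5.71 with genes of 3 or fewer aCM counts at their bound or pooled ratio. Cxcl1, which attracts neutrophils, was at 193, 116 and 188 CPM in iCMs and 1.58 and 1.05 CPM in aCMs (log2 7.002, SE 0.38). Ccl7, which attracts monocytes, was at 60.00, 43.2 and 45.8 CPM in iCMs and 0.789 and 1.05 CPM in aCMs (log2 5.73, SE 0.33), whereas Cxcl12, which retains stem cells in tissue, was lower at 38.9, 47.4 and 46.4 CPM in iCMs and 236 and 254 CPM in aCMs (log2 -2.47, SE 0.19). Of 10 targets of glucocorticoids 4 were higher and 1 lower, or 7 higher with library totals, with Fkbp5 at 295, 255 and 275 CPM in iCMs and 16.2 and 23.7 CPM in aCMs (log2 3.78, SE 0.24). Sgk1, a kinase, was at 592, 541 and 649 CPM in iCMs and 103 and 144 CPM in aCMs (log2 2.27, SE 0.35). The heat shock list parted by type, with a median of -0.80 over 14 genes, which stood at -0.09 with library totals. Hspa1b, an inducible Hsp70, was at 76.8, 96.7 and 137 CPM in iCMs and 3.55 and 4.22 CPM in aCMs (log2 4.73, SE 0.63) and 4 of the 14 were higher, whereas 5 small heat shock proteins were lower, among them Hspb6 at 74.8, 65.8 and 62.6 CPM in iCMs and 1706 and 1099.8 CPM in aCMs (log2 -4.37, SE 0.31). Hspb7 was at 352, 499 and 413 CPM in iCMs and 4007 and 4203 CPM in aCMs (log2 -3.29, SE 0.23). With library totals 4 were higher and 3 lower.

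Clock genes and splicing regulators showed single changes without a common direction. Of 19 clock genes 8 were lower and 2 higher, with a median of -0.69 that became 0.02 with library totals, where 1 was lower and 4 higher. Dbp, an output factor of the clock, was at 12.7, 11.7 and 12.7 CPM in iCMs and 239 and 137 CPM in aCMs (log2 -3.93, SE 0.39, adjusted p = 3.5e-05). Arntl, which encodes BMAL1, was at 22.1, 22.7 and 17.6 CPM in iCMs and 1.45 and 8.53 CPM in aCMs (log2 2.03, SE 0.59, adjusted p = 0.018). The aCM libraries differed from each other for both of these genes, and Arntl fell under the fold threshold without aCM replicate 1 (log2 1.32, adjusted p = 0.04). Of 11 splicing regulators 3 were lower and 1 higher, or 2 higher with library totals. Their median of -0.37 became 0.34 with library totals. Beside backgrounds of 15.2% lower and 19.5% higher, the share called higher in the main fit was below background for clock genes and splicing regulators. Rbm20, which sets titin splicing, was at 38.8, 60.8 and 44.7 CPM in iCMs and 263 and 255 CPM in aCMs (log2 -2.43, SE 0.21). Rbfox1, a muscle and nerve factor, was at 5.26, 5.27 and 5.32 CPM in iCMs and 76.8 and 48.6 CPM in aCMs (log2 -3.57, SE 0.31). Ptbp1, a repressor of muscle exons, was at 309, 306 and 267 CPM in iCMs and 38.9 and 44.5 CPM in aCMs (log2 2.82, SE 0.45, adjusted p = 0.00075). Lists of hypoxia, interferon response and antigen presentation had medians of -0.27, -0.25 and -0.47 that became 0.44, 0.44 and 0.24 with library totals.

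Extracellular matrix and the non-muscle cytoskeleton were higher in iCMs. Of 29 collagens and matrix proteins 23 were higher and 0 lower, with a median of 3.40. Postn, a matrix protein of developing and injured hearts, was at 1279.8, 976 and 1105 CPM in iCMs and 17.2 and 32.4 CPM in aCMs (log2 5.49, SE 0.64, adjusted p = 0.00014). Eln, elastin, was at 1308, 1613 and 1648 CPM in iCMs and 7.23 and 25.3 CPM in aCMs (log2 6.53, SE 1.02, adjusted p = 0.0012). Spp1, osteopontin, was at 1609.8, 1169.7 and 1519.8 CPM in iCMs and 2.89 and 1.92 CPM in aCMs (log2 9.24, SE 0.59). Col4a1 and Col4a2, chains of the basement membrane that heart muscle cells and vessels share, were not called, at log2 1.20 and 0.56, and Col4a1 was called without aCM replicate 2 (1.73, adjusted p = 0.006). Dcn, a collagen-binding proteoglycan, was at 362, 304 and 398 CPM in iCMs and 184 and 242 CPM in aCMs and was not called. Of 17 tested proteases and inhibitors 13 were higher and 1 lower, with a median of 2.75, and Timp4, the inhibitor typical of the heart, was the 1 lower, at 6.93, 8.47 and 14.6 CPM in iCMs and 35.5 and 59.03 CPM in aCMs (log2 -2.25, SE 0.55), though not without aCM replicate 2 (-1.81, adjusted p = 0.081). Of 26 cytoskeletal genes 16 were higher and 0 lower, with a median of 1.97, among them Vim, vimentin, at 3873, 4335 and 4877 CPM in iCMs and 177 and 278 CPM in aCMs (log2 4.26, SE 0.40). Anxa1, a membrane-binding protein, was at 499, 434 and 518 CPM in iCMs and 10.5 and 18.6 CPM in aCMs (log2 5.05, SE 0.32). The summed level of 12 fibroblast markers moved with these lists, at 4442, 4079.8 and 4220.5 CPM in iCMs and 385 and 639 CPM in aCMs. No fibroblast marker was at 0 in any library, 5 of the 12 are also on the matrix list, and the part of these cells in the results was not tested.

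**Figure D2:**
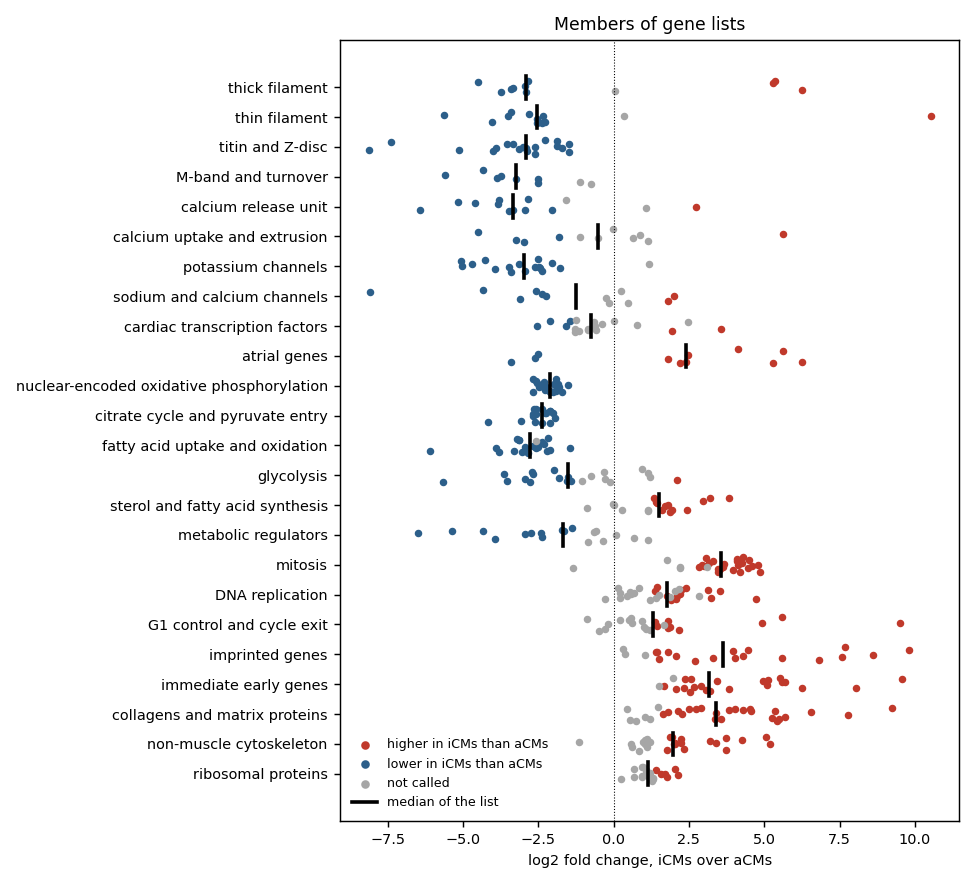
Log2 fold change of iCMs over aCMs for the tested members of 24 gene lists, 1 point a gene, red where called higher, blue where called lower and gray where not called, with a black bar at the median of each list. Z-disc, oxidative phosphorylation and citrate cycle genes are all blue, while imprinted, immediate early and matrix genes lie to the right of 0.

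Several of the genes with the deepest falls are known from muscle. The ranking took in genes that carry a symbol, whose log2 CPM averaged 3 or more and whose groups did not overlap. Tuba8, an alpha tubulin of muscle and testis, was at 1.16, 1.03 and 0.133 CPM in iCMs and 512 and 513 CPM in aCMs (log2 -9.22, SE 0.56, adjusted p = 3.6e-06). Lrtm1, a membrane protein with leucine-rich repeats, was at 0.674, 1.33 and 0.931 CPM in iCMs and 611 and 443 CPM in aCMs (log2 -9.08, SE 0.38, adjusted p = 4.2e-07). Art1, which adds ADP-ribose to proteins of the muscle surface, was at 1.99, 1.99 and 2.46 CPM in iCMs and 549.8 and 457 CPM in aCMs (log2 -7.88, SE 0.24). Slc38a3, a glutamine transporter, was at 1.70, 1.25 and 1.40 CPM in iCMs and 181 and 199.7 CPM in aCMs (log2 -7.02, SE 0.28). Mhrt, a noncoding RNA made antisense to Myh7, was at 1.97, 3.98 and 3.59 CPM in iCMs and 261 and 235 CPM in aCMs (log2 -6.30, SE 0.31), and its counts cannot be told from sense reads where strand was not used. Among the genes highest in iCMs relative to aCMs was Hp, haptoglobin, which binds free hemoglobin, at 530.4, 435 and 636 CPM in iCMs and 0.131 and 0 CPM in aCMs, 9341-fold higher over pooled counts (95% counting interval 1676 to 368956), from 1 count in aCMs. Slc6a12, a betaine transporter, was at 333, 243 and 293 CPM in iCMs and 0 and 0.0958 CPM in aCMs, 5313-fold higher (954 to 209865). Il1rn, the interleukin 1 receptor antagonist, was at 233, 182 and 213 CPM in iCMs and 0.657 and 0.575 CPM in aCMs (log2 8.41, SE 0.59, adjusted p = 4.7e-06). Gm23375, an entry with a provisional symbol, was at 340.2, 209 and 277 CPM in iCMs and had 0 counts in aCMs, at least 1704-fold higher when 3 counts are taken for the aCM libraries together. By class of RNA, 28 of 62 snoRNA genes were higher and 5 lower, with a median of 2.47, against 2933 higher and 2379 lower of 15260 protein-coding genes.

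The cell type labels were checked against markers. All 10 heart muscle markers were above 0 in every library and called lower in iCMs, with sums of 12652, 19938 and 14169.9 CPM in iCMs and 180377 and 150179 CPM in aCMs. RNAs of other cell types were present in both groups. Endothelial markers summed to 2177, 2459 and 2514 CPM in iCMs and 1672 and 2177 CPM in aCMs, and Cdh5, the endothelial cadherin, was at 245, 249 and 244 CPM in iCMs and 238 and 280.3 CPM in aCMs (log2 -0.07, SE 0.18, adjusted p = 0.75). Of 14 endothelial markers 2 were higher and 0 lower, and 6 higher with library totals. The main counts were not above the backgrounds of 19.5% higher and 15.2% lower. Epicardial and mesothelial markers summed to 497, 727 and 404 CPM in iCMs and 24.4 and 29.1 CPM in aCMs, with 10 of 11 higher, and Upk3b, of the mesothelium, was at 109.9, 132 and 74.1 CPM in iCMs and 2.23 and 2.68 CPM in aCMs (log2 5.41, SE 0.60). Lymphocyte markers summed to 81.2, 183 and 43.7 CPM in iCMs and 10.8 and 9.78 CPM in aCMs, with 8 of 11 higher, and 4 higher without aCM replicate 1. In aCMs 4 and 1 of the 12 lymphocyte markers listed were at 0. Cd3e, of the T cell receptor complex, was at 15.6, 31.01 and 3.46 CPM in iCMs and 0.789 and 0 CPM in aCMs, and replicate 3 of iCMs held the least. Erythroid markers summed to 6399, 25828 and 26239 CPM in iCMs and 295 and 244 CPM in aCMs, with 8 of 15 higher and 2 lower. Hba-a1, adult alpha globin, was at 2517, 10155 and 9494 CPM in iCMs and 17.3 and 4.89 CPM in aCMs (log2 9.40, SE 1.32, adjusted p = 0.00069), lowest of the iCM libraries in replicate 1, and Alas2, the first enzyme of heme synthesis in red cells, at 62.9, 279 and 259 CPM in iCMs and 0.657 and 0.767 CPM in aCMs (log2 8.11, SE 1.03). The alpha globin copies share their reads, as do the beta globin copies. The labels name only cardiomyocytes in these libraries, and the part of other cells in the results was not tested.

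**Figure D3:**
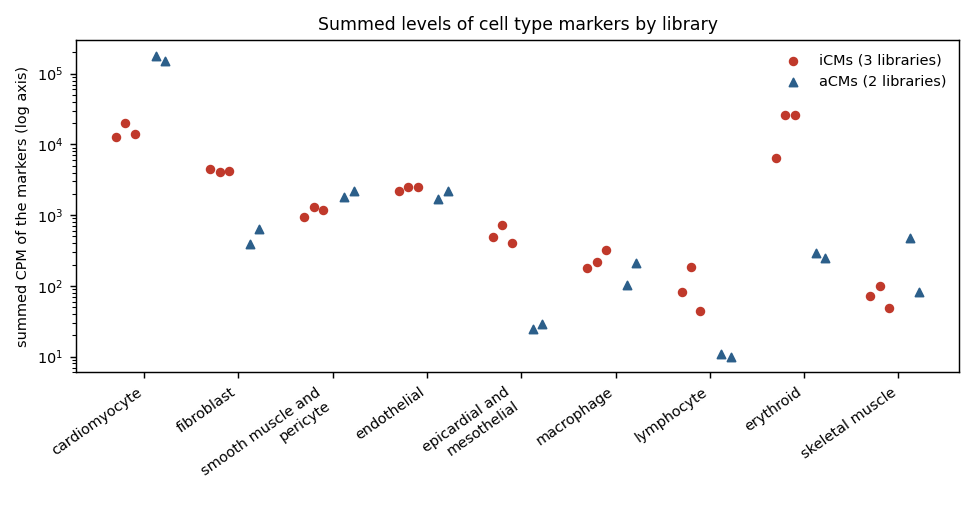
Summed CPM of marker lists for 9 cell types on a log axis, in the 3 iCM libraries (circles) and the 2 aCM libraries (triangles). Heart muscle markers are lower in all iCM libraries, endothelial markers lie at like levels, and fibroblast, epicardial, lymphocyte and erythroid markers are higher in all iCM libraries.

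Some genes differed widely between libraries of a group. Skeletal muscle markers summed to 70.8, 101 and 48.1 CPM in iCMs and 475 and 81.4 CPM in aCMs. Of the 12 tested 6 were lower and 1, Pvalb, was higher. Myh2, a fast skeletal myosin, was at 0.243, 0.442 and 0.266 CPM in iCMs and 99.4 and 2.30 CPM in aCMs (log2 -7.30, SE 1.41, adjusted p = 0.0038), and without aCM replicate 1 at log2 -2.81 (adjusted p = 0.046). Neb, nebulin, the giant protein of skeletal thin filaments, was at 3.48, 3.98 and 2.73 CPM in iCMs and 742 and 7.19 CPM in aCMs (log2 -6.77, SE 1.52, adjusted p = 0.0094), and without aCM replicate 1 at log2 -1.04 (adjusted p = 0.1). Replicate 1 of aCMs thus held more of these skeletal transcripts than replicate 2, and without it 2 of the skeletal markers were lower. Neb was also not called with the replicate number as a block (-5.88, adjusted p = 0.082). Col12a1, a collagen of tendon and muscle sheaths, was at 48.8, 40.4 and 39.2 CPM in iCMs and 138 and 1.25 CPM in aCMs and was not called, but without aCM replicate 1 it was higher in iCMs at log2 5.13 (adjusted p = 0.0026). Eif2s3y, not called with both aCM libraries, was higher in iCMs at log2 6.90 without aCM replicate 2 and lower at -1.41 without aCM replicate 1. Among iCMs, Prdm16, a transcription factor of fat and heart, was at 252, 44.9 and 61.1 CPM, against 67.03 and 71.9 CPM in aCMs, and stood apart in replicate 1. Syn3 was at 6.90, 145 and 138 CPM in iCMs and 101 and 87.1 CPM in aCMs, and it overlaps Timp3, at 365, 222 and 211 CPM in iCMs and 181 and 158 CPM in aCMs, so that reads of the pair cannot be told apart without strand.

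**Figure D4:**
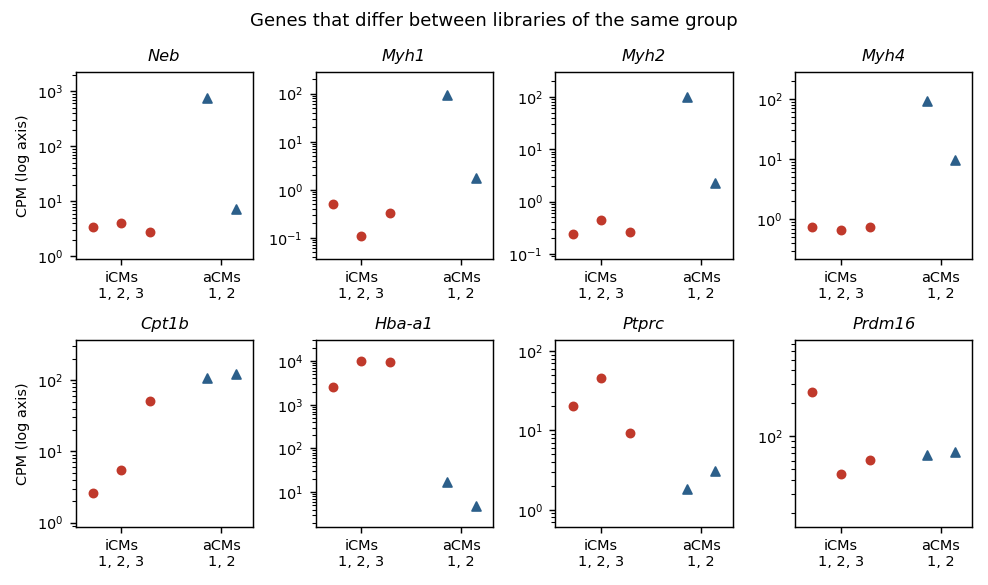
Normalized level in CPM on a log axis for 8 genes that differ between libraries of a group, in the 3 iCM libraries (circles) and the 2 aCM libraries (triangles). Neb, Myh1, Myh2 and Myh4 are high in replicate 1 of aCMs, Cpt1b is high in replicate 3 of iCMs, Hba-a1 low in replicate 1 of iCMs and Prdm16 high in replicate 1 of iCMs.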

How the data were processed

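Total RNA of 3 CSC, 3 iCM and 2 aCM samples was depleted of ribosomal RNA, copied from random primers and sequenced. The authors aligned the read pairs in Strand NGS to the mouse genome, mm10 in their processing notes, with Ensembl transcripts, and deposited estimated counts per gene, not scaled for library size or for the length of the gene. The name of the deposited table mentions both RPKM and raw counts. Its values were read as estimated counts because the library totals differ, from 11.1 to 63.2 M, and many values are whole, and this reading bears on every CPM. Of the deposited estimated counts 51.4% are not whole, and they were rounded. Strandedness and the treatment of reads shared by related genes are not given in the sources used here, and 956 entries that name no annotated gene, with 0.147% of the counts, were kept in the totals.

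Counts of all 8 libraries were fitted in edgeR 4.0.16 (R 4.3.3) with TMM scaling, a low count filter (filterByExpr, minimum 10), the robust quasi-likelihood test and Benjamini-Hochberg adjustment over 20254 genes. The main result takes the contrast of iCMs with aCMs. The fit has 5 residual degrees of freedom, and the same code was tested on simulated data. Log2 CPM used a prior count of 2. The total counts of 11.1 to 31.2 M limit the precision of low genes, and counting intervals at 95% cover counting error only. Alternatives were DESeq2 1.42.0, other scalings, filters and thresholds, a fit of the 5 libraries and the replicate number as a block. Each of the 5 iCM and aCM libraries was also left out in turn, and no CSC library was left out singly. Small RNA and mitochondrially encoded genes were not analysed here.

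Members and lists were chosen with earlier results of these data known. Named genes are the 15 largest rises and 15 deepest falls among genes that carry a symbol, whose log2 CPM averaged 3 or more and whose groups were separate, the most abundant genes, up to 6 called members of a list with the smallest p, members against a list's direction, pair members, leading markers, and genes that varied most within a group. Other members, mostly those not called, were named after their values were seen, and some genes are not reported here. Promoter sequences are those of RefSeq in GRCm38.p6.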

Additional observations from a re-analysis of the deposited data

How the results depend on the processing

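Scaling changed the counts most. With library totals 6686 genes were higher and 1748 lower in iCMs, so that 79.3% of the called genes were higher, against 56.1% with TMM. In every other setting run both counts stayed within 1.5 times the main ones. Leaving out 1 library gave 2978 to 3739 higher and 2627 to 2882 lower genes, the fewest without aCM replicate 1. A paired fit with the replicate number as a replicate block gave 3723 higher and 2987 lower. Same-numbered iCM and aCM libraries had correlations of 0.064 and 0.021 in their deviations from the group means. The deviations of the 2 aCM libraries are equal and opposite, so these correlations cannot decide on a pairing, and none was assumed. Of the 209 tested genes named in the text the block ended the call of 2 and gave a call to 2. The fit of the 5 libraries, without CSCs, ended the call of 5, which were Nppa, Cd3e, Myh1, Myh2 and Neb. A prior count of 0.5 moved only Tnni1 over Tnni3 among the 24 pair ratios, to 13.94, and since no pair overlapped between the groups, leaving out a library could not change their order. Of the 162 called genes named, 13 lost the call without 1 of the libraries, 10 of them without aCM replicate 1, and none changed sign. Of those not called, values without 1 library ran from -1.67 (without aCM replicate 2) to 5.13 (without aCM replicate 1) for Col12a1, and from -0.97 to 6.07 for Ddx3y and -1.41 to 6.90 for Eif2s3y (lowest without aCM replicate 1, highest without aCM replicate 2). The causes were not tested. With 2 aCM libraries and few counts for genes such as Tnni1 and Cdkn2a in aCMs, the size of such folds is imprecise.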

Other observations

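Several marker lists not described above are given here, beside backgrounds of 19.5% higher and 15.2% lower. For the smooth muscle and cardiac stem cell lists the share called higher was near its background. Epithelial markers summed to 36.3, 65.9 and 31.5 CPM in iCMs and 0.789 and 1.73 CPM in aCMs, with 4 of 6 higher in iCMs and 4 and 3 of the 6 at 0 in the aCM libraries. Macrophage markers summed to 179, 221 and 322 CPM in iCMs and 103 and 212 CPM in aCMs, with 5 of 13 higher, 2 without iCM replicate 3 and 1 without aCM replicate 1. Smooth muscle and pericyte markers summed to 955, 1290.2 and 1199 CPM in iCMs and 1827 and 2211 CPM in aCMs, with 2 of 11 higher and 3 lower, or 4 higher and 1 lower without aCM replicate 2 and 5 higher and 0 lower with library totals. Cardiac stem cell markers summed to 769, 675 and 726 CPM in iCMs and 309 and 388 CPM in aCMs, with 1 of 5 higher, or 2 without iCM replicate 2 and 4 with library totals. Of 10 long noncoding RNAs tested 6 were higher and 1 lower, with a median log2 difference of 2.87.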
